A study of Mus musculus with 17 samples.

Results

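Hmga2 encodes a high mobility group protein with AT-hooks, which bends DNA and changes the shape of chromatin without activating transcription by itself. Its counts were followed across 17 RNA sequencing libraries of mouse common myeloid progenitors, sorted cells that can still form granulocytes, monocytes, red cells or platelets. Hmga2 is 1 of the 24416 genes with a row in the count data, and it was counted on 1 RefSeq transcript, NM_010441. The question, from the title of the series, is how Lin28b and let-7 are controlled while myeloid cells develop.

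The libraries form 7 groups. Wild-type fetal liver (n = 3) and wild-type adult bone marrow (n = 3) give the developmental comparison, called development below. Stage and organ both differ in it and cannot be told apart. Adult marrow with inducible LIN28B (n = 2) and adult marrow with inducible LIN28B under vavcre (n = 2) give the induction, where vavcre limits it to blood cells per the design text. Adult marrow labelled Let-7b/c knock-out has 3 libraries, whose titles begin with FLD, letters that the labels do not explain. Fetal liver labelled Lin28b KO has 3, and fetal liver with inducible Let-7 has 1. The strain is C57BL/6J in all groups except the let-7b/c knockout, which is albino black 6, so strain and knockout cannot be told apart there. The treatment label is the same in every library, wild type included, and names doxycycline as the inducer of Lin28b, with no dose, duration, fetal day or adult age. Whether each library is a different animal is not labelled, and the p-values describe only the spread between these libraries, part of which may be technical.

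LIN28B, a protein made by fetal but hardly by adult progenitors, binds let-7 precursors and blocks their maturation. Mature let-7 microRNAs pair through their seed, bases 2 to 8, with sites in the 3′ untranslated region (UTR) of target messages and lower them. Hmga2 is among the best known of these targets, and fetal blood stem and progenitor cells are known to hold more of it than adult ones.

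The let-7 family shares 1 seed, so any member could pair with the same sites. All 9 mature family members in RefSeq (GRCm38.p6), miR-98 included, had the seed GAGGUAG. The 2 members named in the knockout label and 2 others are shown 5′ to 3′, with the seed in capitals.
mmu-let-7b-5p: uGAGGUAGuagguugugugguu
mmu-let-7c-5p: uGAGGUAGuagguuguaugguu
mmu-let-7a-5p: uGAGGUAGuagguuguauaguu
mmu-let-7g-5p: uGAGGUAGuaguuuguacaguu
Outside the seed, let-7c differed from let-7b at 1 base, let-7a at 2 and let-7g at 4.

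Hmga2 lies on the minus strand of chromosome 10, at chr10:120361268-120476469 in RefSeq for GRCm38.p6. Its transcript of 3710 bases has 5 exons, and the last of them holds the 3′ UTR of 2977 bases in the GENCODE vM21 model paired with the counted accession. The sense strand of that UTR was searched for CTACCTC, which pairs with the seed, and for TACCTCA, which pairs with bases 2 to 7 and adds an A. A stretch that held both was counted once, as an 8mer. The search found 7 matches: 1 8mer, 3 of the CTACCTC kind and 3 of the TACCTCA kind. They are shown because they are the letters that the seeds above can pair with, each with its 20 upstream bases in lower case and the match in capitals, as transcribed (GRCm38, minus strand).
Hmga2 site 1, chr10:120364224-120364251: ggggcgccgacattcaatttCTACCTCA
Hmga2 site 2, chr10:120363140-120363166: tgaaagaccgcagtaccactTACCTCA
Hmga2 site 3, chr10:120362988-120363014: ataatccccactcctcaataCTACCTC
Hmga2 site 4, chr10:120362599-120362625: aatataagtctccaagtttgTACCTCA
Hmga2 site 5, chr10:120362550-120362576: acttcctgatttgcaaggaaCTACCTC
Hmga2 site 6, chr10:120361692-120361718: tgtacaatcaaaacacactaCTACCTC
Hmga2 site 7, chr10:120361672-120361698: ctacctcttaagtcccagtaTACCTCA
The 8mer begins at base 21 of the UTR, close to the coding sequence, and the last match ends at base 2580. The stretch printed for site 7 begins with the match of site 6. Hmga2 had 2.35 matches per kilobase of UTR. Of 19293 genes with a 3′ UTR searched the same way, 13.8% had any match and 4, Hmga2 among them, had 7 or more. The 2 genes with more were Nr6a1 and D10Wsu102e, with 8 each, and the model of D10Wsu102e has a UTR of 122583 bases. A match describes the sequence and does not show that let-7 binds there in these cells.

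The libraries held 14957111 to 28165554 counts over genes, and Hmga2 had between 100 and 11798 of them. Levels are given as CPM, which divides each count by its library's TMM-scaled size, and a difference was called at an adjusted p under 0.05. Fewer cells with Hmga2 and less Hmga2 RNA per cell cannot be told apart in bulk RNA. Markers of other cells stood apart in the libraries labelled Lin28b knockout. The summed level of 23 erythroid markers was 49380 to 56920 CPM there and 506 to 3167 CPM in all other libraries. The albumin gene Alb was at 110.5 to 435 CPM there and at most 0.821 CPM elsewhere. Of the defining progenitor genes, Mpo was present in every library (3166 to 16910 CPM), Cd34 was between 0.684 and 14.3 CPM, and Kit and Cebpa had 0 counts in every library and were not analysed here.

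The targeted genes were checked first. Lin28b had 111.9, 88.9 and 110.7 CPM in the 3 libraries labelled Lin28b knockout and 89.3, 99.6 and 123.5 CPM in wild-type fetal liver, so the ranges overlapped and the count does not show a knockout (log2 difference -0.0041, SE 0.27, edgeR adjusted p = 1.0). Reads from a gene with part deleted can still be counted, so these are named the libraries labelled Lin28b knockout. Counts of mouse Lin28b rose 7.24-fold with LIN28B induction, from 0.359 ± 0.351 CPM in wild-type marrow (SD, n = 3) to 2.67 ± 0.858 without vavcre and 2.83 ± 1.55 with it (SD, n = 2 each; edgeR adjusted p = 0.00133, or 0.0628 in a fit of the compared groups alone). How much of the induced LIN28B message is counted on the mouse gene was not tested.

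Mature let-7 was not measured. No let-7 hairpin had more than 13 counts in any library, and the hairpins of let-7b and let-7c-2 had 0 counts in all 17, which allows up to 0.201 CPM in the shallowest library (3 counts, counting error only). Lncppara, the noncoding gene that contains both hairpins (chr15:85703773-85707524, GRCm38.p6), had 293, 194 and 213 counts in the 3 let-7b/c knockout libraries and 18 counts in the other 14 together. That is 10.98 to 15.8 CPM against at most 0.364 CPM, with no overlap, and the rise over wild-type marrow was called (log2 change 7.05, SE 0.94, edgeR adjusted p = 0.00222). The libraries labelled let-7b/c knockout thus differ from the others at that locus. Lncppara was looked up after its counts had been seen.

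Hmga2 was highest in wild-type fetal liver, with 535, 520.0 and 542 CPM in its 3 libraries. LIN28B marrow under vavcre followed with 85.8 and 92.1 CPM. LIN28B marrow without vavcre had 60.9 and 59.5 CPM. These 3 groups lay above every library of wild-type marrow and did not overlap each other.
Wild-type marrow had 31.9, 28.4 and 35.4 CPM. The inducible let-7 library of fetal liver had 25.2 CPM from 651 counts, with a 95% Poisson interval of 23.3 to 27.2 CPM that covers counting error only. The libraries labelled Lin28b knockout had 19.6, 23.6 and 24.6 CPM. The let-7b/c knockout marrow was lowest, with 11.1, 5.66 and 6.66 CPM from 205, 100 and 128 counts.

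Group means were 532 ± 11.2 CPM (SD, n = 3) in wild-type fetal liver, 88.9 ± 4.51 (n = 2) and 60.2 ± 0.955 (n = 2) in LIN28B marrow with and without vavcre, 31.9 ± 3.46 (n = 3) in wild-type marrow, 22.6 ± 2.65 (n = 3) in the labelled Lin28b knockout and 7.80 ± 2.89 (n = 3) in the let-7b/c knockout. The means thus spanned 68.3-fold. The SD was 2.11% of the mean in wild-type fetal liver and 37.0% in the let-7b/c knockout, where counts were lowest. The fitted biological coefficient of variation of Hmga2 was 13.3%, against a median of 24.5% over the 13558 genes tested.

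**Figure D1:**
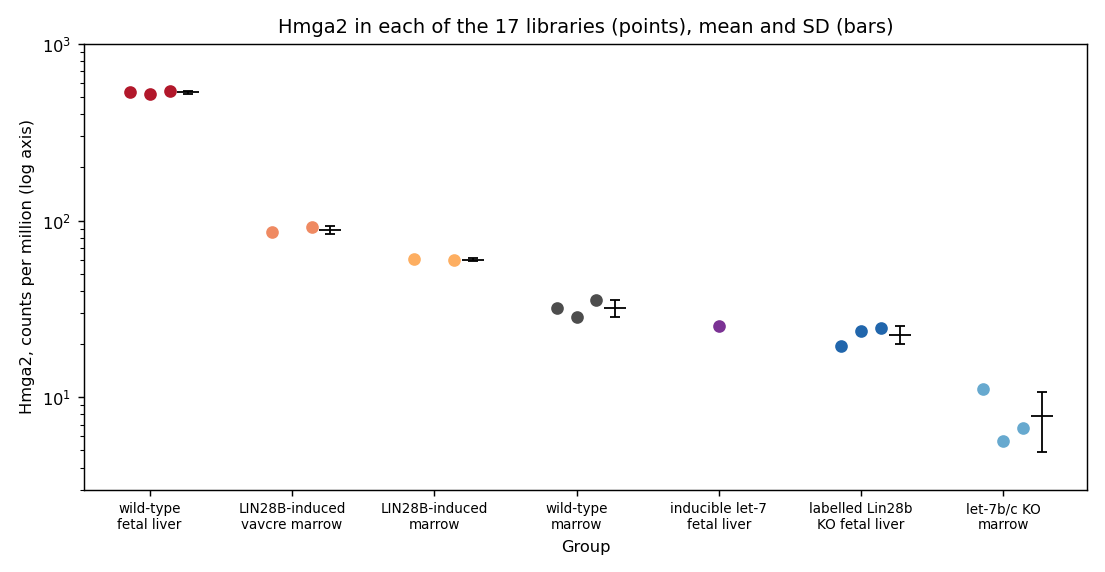
Hmga2 in CPM on a log axis, for each library (points) of the 7 groups, with the group mean and SD (bars) where a group has more than 1 library. Wild-type fetal liver sits at 520.0 to 542 CPM, wild-type marrow at 28.4 to 35.4 CPM and the let-7b/c knockout at 5.66 to 11.1 CPM.

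In the order of levels, neighbours were compared in 1 edgeR fit of all libraries. Wild-type fetal liver was 5.99-fold above LIN28B marrow under vavcre (edgeR adjusted p = 2.30e-07, with 36.1% of genes called). The 2 LIN28B groups differed 1.48-fold without passing the threshold (edgeR adjusted p = 0.0513). LIN28B marrow without vavcre was above wild-type marrow, and wild-type marrow above the labelled Lin28b knockout, by differences close to the threshold that are described below. The labelled Lin28b knockout was 2.90-fold above the let-7b/c knockout (edgeR adjusted p = 3.70e-06, with 47.0% of genes called). The single inducible let-7 library got no test, and its value lay between the lowest wild-type marrow library and the highest labelled knockout library.

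The developmental comparison, of stage and organ together, gave the largest rise. Hmga2 was 16.7-fold higher in wild-type fetal liver than in wild-type marrow (log2 change 4.06, SE 0.18, edgeR adjusted p = 9.24e-10), where 27.1% of genes were called. It was higher in each fetal library than in each marrow library. By p-value it stood at rank 7, and by size of rise at rank 153, of 13558 genes. Beside this rise, 12 of 13 granulocyte markers were lower in fetal liver, with summed levels of 403 to 494 CPM against 1559 to 2389 CPM. Of the 7 tested progenitor markers 3 were lower, with sums of 4944 to 6445 CPM against 9674 to 11620 CPM. Most of these sums was Mpo, at 4805 to 6294 CPM against 9491 to 11440 CPM. Of the 8 macrophage markers 4 were lower and 2 higher, of the 22 erythroid ones 5 lower and 1 higher, and of the 8 stroma and endothelium ones 3 lower. The part of these lists in the result was not tested.

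Hmga2 was higher in the LIN28B marrow libraries than in wild-type marrow, at a level far under that of fetal liver. The comparison is called LIN28B induction after the label, since the induced message itself was not measured. Over both LIN28B groups the rise was 2.29-fold over wild-type marrow (95% interval 1.83 to 2.88, edgeR adjusted p = 3.59e-04, with 14.4% of genes called). All 4 LIN28B libraries were above all 3 wild-type ones. With vavcre the rise was 2.79-fold (edgeR adjusted p = 3.61e-05, with 26.8% of genes called), and without it 1.89-fold (edgeR adjusted p = 0.0234).

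Without vavcre, Hmga2 was among only 0.804% of genes called. That call was lost, at an edgeR adjusted p of up to 0.172, when either library of the group, any 1 of the 3 wild-type marrow libraries or wild-type fetal liver replicate 4 was left out, while the log2 change stayed between 0.84 and 1.01. The difference between the 2 LIN28B groups was 0.56 on the log2 scale (95% interval 0.15 to 0.97), in a comparison where 20.6% of genes were called. It passed the threshold without labelled Lin28b knockout replicate 3 or any 1 of the let-7b/c knockout libraries (edgeR adjusted p of 0.00484 to 0.0493).
On a log scale, induction covered 36.4% of the distance from wild-type marrow to wild-type fetal liver with vavcre and 22.6% without it. Both LIN28B groups together stayed 7.28-fold under wild-type fetal liver (edgeR adjusted p = 4.89e-09, with 32.6% of genes called). Against wild-type marrow, where 14.4% of all genes were called, 3 of 22 tested erythroid markers were higher and 4 of 8 macrophage markers lower. Summed macrophage levels were 39.4 to 114.9 CPM in LIN28B marrow and 111.5 to 138.2 CPM in wild-type marrow. Of the 8 stroma and endothelium markers 3 were lower, of the 7 stem and multipotent ones 2, of the 13 granulocyte ones 2 and of the 7 progenitor ones 1. Their part in the result was not tested.

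The let-7b/c knockout had less Hmga2 than wild-type marrow, not more. Hmga2 fell 4.09-fold (log2 change -2.03, SE 0.18, edgeR adjusted p = 2.79e-05), and the 3 knockout libraries lay under all 3 wild-type ones. In this comparison 2.25% of genes were called, and only 2 of the 13558 had a smaller p than Hmga2. The fall was called in every fit that left out 1 library, with a log2 change between -2.35 and -1.83.
Against LIN28B marrow of both groups, the let-7b/c knockout was 9.37-fold lower (edgeR adjusted p = 8.28e-08, with 18.5% of genes called). The libraries labelled let-7b/c knockout and the LIN28B libraries thus stood on opposite sides of wild-type marrow. The summed level of the progenitor list was 13840 to 17210 CPM in the let-7b/c knockout and 9674 to 11620 CPM in wild-type marrow, with 1 of 7 tested members called higher. Most of these sums was Mpo, at 13560 to 16910 CPM and 9491 to 11440 CPM. Against wild-type marrow, where 2.25% of all genes were called, 3 of the 22 erythroid markers were lower and 1 of the 13 granulocyte markers was higher. Of the 8 macrophage markers 1 rose and 1 fell. The summed macrophage level was 224 to 360 CPM in the knockout, above the 111.5 to 138.2 CPM of wild-type marrow. The members did not rise together: their median log2 change was -0.45, with 1 higher and 3 lower at an unadjusted p under 0.05. The part of these lists in the result was not tested.

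The libraries labelled Lin28b knockout had 23.5-fold less Hmga2 than wild-type fetal liver (log2 change -4.56, SE 0.18, edgeR adjusted p = 3.46e-11), in a comparison where 43.8% of genes were called. All 3 lay under all wild-type fetal libraries. They were also 1.41-fold under wild-type adult marrow (log2 change -0.50, SE 0.16, edgeR adjusted p = 0.0209), but 47.8% of genes were called there.
That smaller call was lost, at an edgeR adjusted p of up to 0.152, without labelled Lin28b knockout replicate 3, either LIN28B library without vavcre, or wild-type marrow replicate 2 or 6. Beside the fall from wild-type fetal liver, 21 of 22 erythroid, 11 of 12 hepatocyte, 12 of 13 granulocyte, 7 of 8 macrophage and 7 of 8 stroma and endothelium markers were higher, and 5 of 7 stem and multipotent markers were lower. The summed stem and multipotent level was 47.6 to 69.5 CPM there and 480 to 516 CPM in wild-type fetal liver. The part of these other cells in the Hmga2 difference was not tested.

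**Figure D2:**
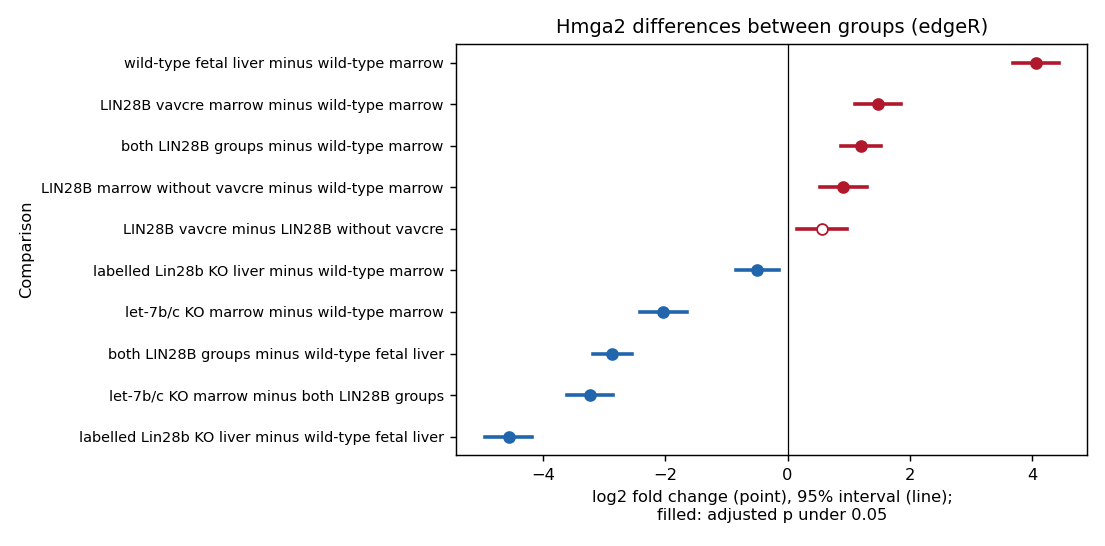
Log2 fold change of Hmga2 in 10 comparisons (points) with 95% intervals (lines), red where higher and blue where lower in the group named first, filled where the edgeR adjusted p was under 0.05. The changes run from -4.56 to 4.06, and the open point is the difference of 0.56 between LIN28B marrow with and without vavcre.

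The inducible let-7 library had 25.2 CPM of Hmga2, 21.1-fold under the mean of wild-type fetal liver, its own tissue. There is no replicate check of this difference. Lin28b was at 91.2 CPM in the same library, within the wild-type fetal range of 89.3 to 123.5 CPM. Its summed erythroid level was 506 CPM and its summed stem and multipotent level 187.5 CPM, under the wild-type fetal ranges of 1084 to 1464 and 480 to 516 CPM. Other sums were above the wild-type fetal ranges: 2047 CPM for the granulocyte list (403 to 494), 17180 CPM for the progenitor list (4944 to 6445) and 261.8 CPM for the macrophage list (144.3 to 165.8). Most of the progenitor sum was Mpo, at 16860 CPM (4805 to 6294). The part of these lists in the difference was not tested. Of the stroma and endothelium list, 10 of 11 genes had 0 counts in it.

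The other genes of the pathway were read beside Hmga2. The Igf2bp genes encode RNA-binding proteins that stabilise growth messages, and Igf2bp2 is also known as a gene that HMGA2 activates. Per kilobase of transcript, Hmga2 was the most abundant of the 6 axis genes in wild-type fetal liver, at 143.5 CPM per kilobase. Igf2bp3 had 64.5, Igf2bp2 60.5, Igf2bp1 24.7 and Lin28b 19.3 CPM per kilobase in the same group. In wild-type marrow Hmga2 still had 8.60 CPM per kilobase, against 1.69 for Igf2bp2, 0.910 for Igf2bp3, 0.0664 for Lin28b and 0.0560 for Igf2bp1. Hmga2 was thus the axis gene with the highest adult level on this scale.

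Igf2bp2 had 229, 225 and 254 CPM in wild-type fetal liver and 8.34, 5.68 and 5.70 CPM in wild-type marrow. It fell with Hmga2 in the labelled Lin28b knockout, to 14.3, 16.6 and 18.9 CPM (log2 change -3.83, edgeR adjusted p = 1.38e-09). Unlike Hmga2, it stayed above wild-type marrow there (log2 change 1.33, edgeR adjusted p = 7.83e-05). Igf2bp2 was at 0.543 CPM in the inducible let-7 library. It did not pass the threshold in LIN28B marrow, where its 6.66 to 11.9 CPM overlapped wild-type marrow, nor in the let-7b/c knockout, where it had 4.60 to 6.76 CPM.
Igf2bp1 and Igf2bp3 also fell in the labelled Lin28b knockout, by less than Hmga2 (log2 changes -1.37 and -1.27, edgeR adjusted p = 0.00287 and 2.09e-05), and stayed above wild-type marrow. By DESeq2 the fall of Igf2bp1 was not called (-1.30, adjusted p = 0.0998). With the replicate block neither fall was called (Igf2bp1 0.092, edgeR adjusted p = 0.975, and Igf2bp3 -0.63, edgeR adjusted p = 0.0888). Igf2bp3 was at 110.3 to 120.6 CPM in the labelled Lin28b knockout and at 319.8 CPM in the inducible let-7 library, against 273 to 286 CPM in wild-type fetal liver and 3.72 to 4.22 CPM in wild-type marrow. Igf2bp1 was at 71.7 to 84.2 CPM and 93.5 CPM in those groups, against 184 to 218 CPM and at most 0.844 CPM. Of the 3, Igf2bp3 was the one called in LIN28B marrow (log2 change 1.0, edgeR adjusted p = 0.00463, or 0.0862 in a fit of the compared groups alone). Lin28a, the paralogue of Lin28b, was at most 4.84 CPM in every library.

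**Figure D3:**
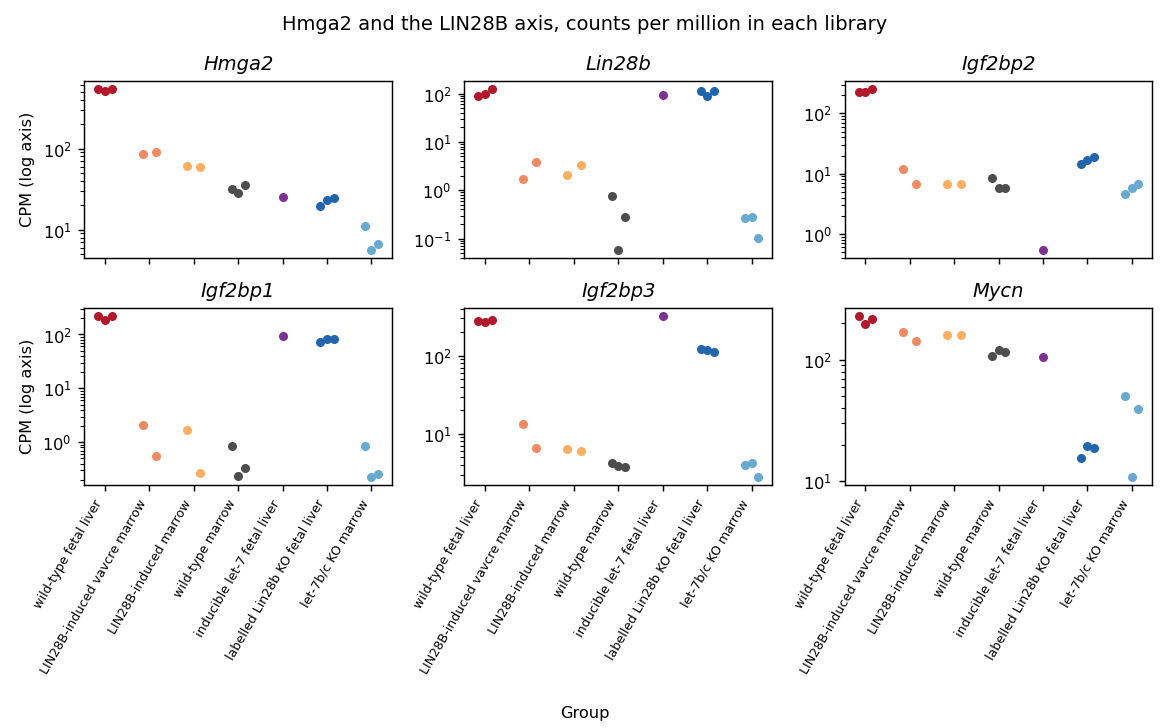
CPM on log axes in each library (points) for Hmga2, Lin28b, the 3 Igf2bp genes and Mycn, in the same group order in each panel. In the labelled Lin28b knockout, Hmga2 is close to its wild-type marrow level and Lin28b overlaps wild-type fetal liver. The 3 Igf2bp genes lie between wild-type marrow and wild-type fetal liver there, with Igf2bp2 nearest to its marrow level.

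Of 48 known or predicted let-7 targets with a row in the count data, 40 were tested, Hmga2 included. In wild-type fetal liver against wild-type marrow 18 rose and 5 fell, with a median log2 change of 0.49 beside -0.08 over all genes, of which 27.1% were called in either direction. With LIN28B induction 14 rose and 0 fell by edgeR, with a median of 0.28 beside -0.07 and 14.4% of all genes called. At an unadjusted p under 0.05, 4 were lower, and DESeq2 called 3 lower. In the labelled Lin28b knockout 7 rose and 20 fell against wild-type fetal liver, with a median of -0.40 beside 0.0 and 43.8% of all genes called. In the let-7b/c knockout 0 rose by edgeR and 3 fell, namely Hmga2, Mycn and Arid3b, with a median of -0.19 beside 0.0028 and 2.25% of all genes called. At an unadjusted p under 0.05, 2 were higher, and DESeq2 called 1 higher. These counts describe the list and were not tested as a set.

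By the naming rule, 11 targets were higher both in wild-type fetal liver and with LIN28B induction, which share the wild-type marrow libraries and are not independent. They were Hmga2, Lin28b, Igf2bp3, the AT-rich DNA-binding factor Arid3b, the signalling GTPase Nras, the cell cycle genes Cdc25a, Cdc34 and E2f5, the microRNA processing enzyme Dicer1, the Polycomb gene Cbx2 and Bzw1. Hmga2's developmental log2 change of 4.06 was smaller than those of Lin28b (8.09) and Igf2bp3 (6.14) and larger than the 0.43 to 1.57 of the other members. With LIN28B induction, Hmga2's 1.20 came after Lin28b (2.86) and was close to Arid3b (1.12) and Igf2bp3 (1.0). The rises of Cbx2 were lost in both comparisons without wild-type marrow replicate 6, and the developmental one also without wild-type fetal liver replicate 1.

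Arid3b had 39.1 and 41.0 CPM in LIN28B marrow without vavcre, 30.3 and 31.9 CPM with it, 14.9 to 18.7 CPM in wild-type marrow and 8.88 to 11.2 CPM in the let-7b/c knockout. Its fall in the knockout (log2 change -0.72, edgeR adjusted p = 0.0133) was lost without let-7b/c knockout replicate 2 (0.0711) or wild-type marrow replicate 2 (0.0793). The fall was also lost in a fit of the compared groups alone (edgeR adjusted p = 0.0952) and with the replicate block (0.22). Unlike Hmga2, Arid3b was not lower in the labelled Lin28b knockout, at 49.6 to 52.3 CPM, than in wild-type fetal liver, at 38.7 to 45.8 CPM. The rise between them was not called in the main fit (log2 change 0.30, edgeR adjusted p = 0.071). It was called by DESeq2 (0.38, adjusted p = 0.00673) and in a fit of the compared groups alone (0.37, edgeR adjusted p = 0.00946). Arid3b was at 3.06 CPM in the inducible let-7 library.
Mycn, a growth-promoting transcription factor, had 50.1, 10.8 and 39.1 CPM in the let-7b/c knockout and 107.4, 121.4 and 115.6 CPM in wild-type marrow (log2 change -1.78, edgeR adjusted p = 0.0116, or 0.0588 in a fit of the compared groups alone). It was at 15.4 to 19.5 CPM in the labelled Lin28b knockout and 198.8 to 228 CPM in wild-type fetal liver (log2 change -3.59, edgeR adjusted p = 8.01e-07). Its developmental rise (log2 change 0.90, edgeR adjusted p = 0.0471) was lost whenever 1 of the wild-type libraries was left out.

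**Figure D4:**
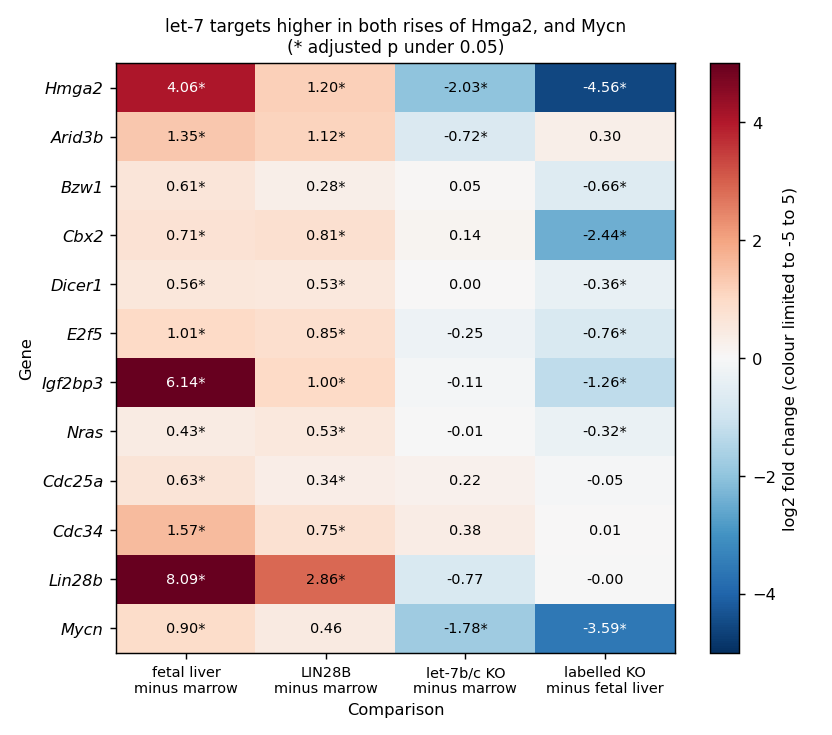
Log2 fold changes in 4 comparisons (columns, with values printed and colour limited to -5 to 5) for Hmga2, the 10 other let-7 targets that were higher in both of its rises, and Mycn, with stars at an edgeR adjusted p under 0.05. In the let-7b/c knockout column the stars are at Hmga2 (-2.03), Arid3b (-0.72) and Mycn (-1.78).

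The number of let-7 matches was set beside the changes over 12293 tested genes with a UTR model, as a description. With LIN28B induction 6.58% of the 10389 genes with no match were called higher and 8.21% lower. Of the 1563 genes with 1 match 10.1% were higher and 6.72% lower, of the 276 with 2 matches 8.70% and 7.61%, and of the 65 with 3 or more 16.9% and 3.08%. In the let-7b/c knockout the shares called higher were 1.32%, 1.60%, 2.90% and 1.54% in the same order, and those called lower 0.934%, 1.09%, 2.17% and 3.08%, the last being 2 of 65 genes. Genes as rich in matches as Hmga2 did not all move like it. Nr6a1 and Nudt12, with 8 and 7 matches, had log2 changes of 0.15 and 0.037 with LIN28B induction (edgeR adjusted p = 0.951 and 0.961). The estimate for Nr6a1 is imprecise, since its change of -1.40 in the let-7b/c knockout was not called either (edgeR adjusted p = 0.579).

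Of 13 tested genes that process let-7 or act with it in silencing, 3 rose and 5 fell in wild-type fetal liver against wild-type marrow, and 2 rose and 1 fell with LIN28B induction, beside 27.1% and 14.4% of all genes called. In the let-7b/c knockout 0 were called by edgeR or DESeq2 (1 was lower at an unadjusted p under 0.05).

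Of the high mobility group family, 7 of 11 genes with a row were tested. Hmga1, the closest relative of Hmga2, had 0 counts in every library and was not analysed here. Among the others, the chromatin proteins Hmgb1, Hmgn1 and Hmgn2 rose in wild-type fetal liver (log2 changes 0.52, 1.04 and 0.65) and with LIN28B induction (0.27, 0.39 and 0.43), and fell in the labelled Lin28b knockout (-0.64, -0.85 and -0.97). Over all genes, 27.1%, 14.4% and 43.8% were called in these comparisons, in that order. By edgeR, the rise over wild-type marrow was called with vavcre (0.53, 0.71 and 0.90) but not without it (-0.0026, 0.070 and -0.039). In the let-7b/c knockout the log2 changes of Hmgb1, Hmgn1 and Hmgn2 were -0.013, 0.11 and 0.054. Hmga2 was the 1 member of the family called there, beside 2.25% of all genes. By edgeR, Hmgb2, Hmgn3 and Hmgn5 were not called in wild-type fetal liver against wild-type marrow (log2 changes 0.14, -1.38 and -0.096). Nor were they called with LIN28B induction (-0.20, 0.99 and 0.25), though DESeq2 called Hmgn5 there (0.25, adjusted p = 0.0299). Hmgn3 had group means of at most 0.380 CPM. Hmgb2 went the other way in the labelled Lin28b knockout (log2 change 0.59, edgeR adjusted p = 8.56e-05), while Hmgn5 fell (-0.64, edgeR adjusted p = 3.47e-05).

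Of 12 genes linked to HMGA2 in other systems, 10 were tested. With LIN28B induction, where 14.4% of all genes were called, edgeR called 1 of the 10, Junb, a subunit of the AP-1 transcription factor. Junb had 418 and 465 CPM with vavcre, 160 and 298 CPM without it, and 68.1 to 81.5 CPM in wild-type marrow (4.35-fold, edgeR adjusted p = 2.15e-05). In the let-7b/c knockout, where 2.25% of all genes were called, 2 rose. They were Junb (2.07-fold, edgeR adjusted p = 0.00781) and the basic leucine zipper repressor Nfil3 (2.75-fold, edgeR adjusted p = 0.00769). Junb did not pass the threshold in development (log2 change -0.36, edgeR adjusted p = 0.16) or between wild-type fetal liver and the labelled Lin28b knockout (0.18, edgeR adjusted p = 0.465). Of the 10, 3 rose and 1 fell in development, where 27.1% of all genes were called, and 4 rose and 2 fell in the labelled Lin28b knockout, where 43.8% were.

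The nearest protein-coding neighbours in RefSeq are Llph, Tmbim4 and Irak3 at 129, 136 and 159 kb on the 3′ side of Hmga2, and Msrb3, Lemd3 and Wif1 at 305, 447 and 558 kb on the 5′ side. In wild-type fetal liver Llph rose (log2 change 0.61), Irak3 fell (-1.75), and edgeR called none of the other 4, while DESeq2 also called Tmbim4 lower (-0.33, adjusted p = 0.0226). Of the 6, Llph (-0.52, edgeR adjusted p = 0.00153) and Msrb3 (-1.92, edgeR adjusted p = 2.92e-04) fell from wild-type fetal liver to the labelled Lin28b knockout. By edgeR and by DESeq2, 0 of the 6 were called with LIN28B induction (log2 changes of -1.69 to -0.10, 1 at an unadjusted p under 0.05) or in the let-7b/c knockout (-0.31 to 1.82, 0 at an unadjusted p under 0.05). The extremes of -1.69 and 1.82 were both of Wif1, which was hardly detected in marrow. It had 2 counts in all of wild-type marrow and 8 in the let-7b/c knockout. With vavcre alone, Llph (-0.39, edgeR adjusted p = 0.0348) and Lemd3 (-0.78, edgeR adjusted p = 0.0383) were lower than in wild-type marrow. Of all genes, edgeR called 27.1% in development and 43.8% between wild-type fetal liver and the labelled Lin28b knockout. The shares were 14.4% with LIN28B induction, 2.25% in the let-7b/c knockout and 26.8% with vavcre alone. Against such shares, 6 genes are too few to set the neighbours apart from other genes. Hmga2-ps1, a transcribed pseudogene that could share reads with Hmga2, had group means of 8.69 to 17.9 CPM and had unadjusted p-values above 0.05 by edgeR in the developmental, induction, let-7b/c knockout and labelled Lin28b knockout comparisons. Whether the strand was used in counting is not given in the sources used here. RefSeq places 5 noncoding genes within the bounds of Hmga2, of which Mir763 and 9230105E05Rik were counted separately, at group means of at most 1.82 and 0.491 CPM.

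Among 2545 genes with at least 10 CPM in some group and group means at least 2 log2 units apart, likeness to Hmga2 was measured as Pearson's r of log2 CPM over the 17 libraries. The points share their 7 groups, so r is a description. Among the highest 8 values were those of Tspan6 (0.92), Mn1 (0.90), Dok2 (0.89), Rabl2 (0.87), Slc18a1 (0.85), Rcor2 (0.83) and Ecscr (0.82). Igf2bp2 came at rank 11 (0.76), Mycn at rank 13 (0.76) and Lin28b at rank 72 (0.53). The lowest were Prss57 (-0.94), Dram1 (-0.93), Slpi (-0.93), Ly6c2 (-0.93) and Elane (-0.92). Elane, Prss57 and Slpi encode proteins of neutrophil granules or secretions, and Ly6c2 is a surface marker of monocytes and maturing myeloid cells.

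Tspan6, a membrane tetraspanin, had group means of 110.8 CPM in wild-type fetal liver, 40.6 and 29.5 CPM in LIN28B marrow with and without vavcre, 22.3 CPM in wild-type marrow, 17.8 CPM in the labelled Lin28b knockout and 12.6 CPM in the let-7b/c knockout. That is the order of Hmga2, except that the inducible let-7 library had 54.7 CPM. Mn1, a transcriptional cofactor, had 38.3 CPM in wild-type fetal liver, 22.6 and 10.4 CPM in LIN28B marrow with and without vavcre and 6.03 CPM in wild-type marrow. It had 2.44 to 4.26 CPM in the remaining groups. Elane had 17.9 CPM in wild-type fetal liver, 344 CPM in wild-type marrow and 756 CPM in the let-7b/c knockout. In LIN28B marrow it had 62.4 and 375 CPM with vavcre and 53.6 and 90.2 CPM without it, so these 2 groups overlapped.

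**Figure D5:**
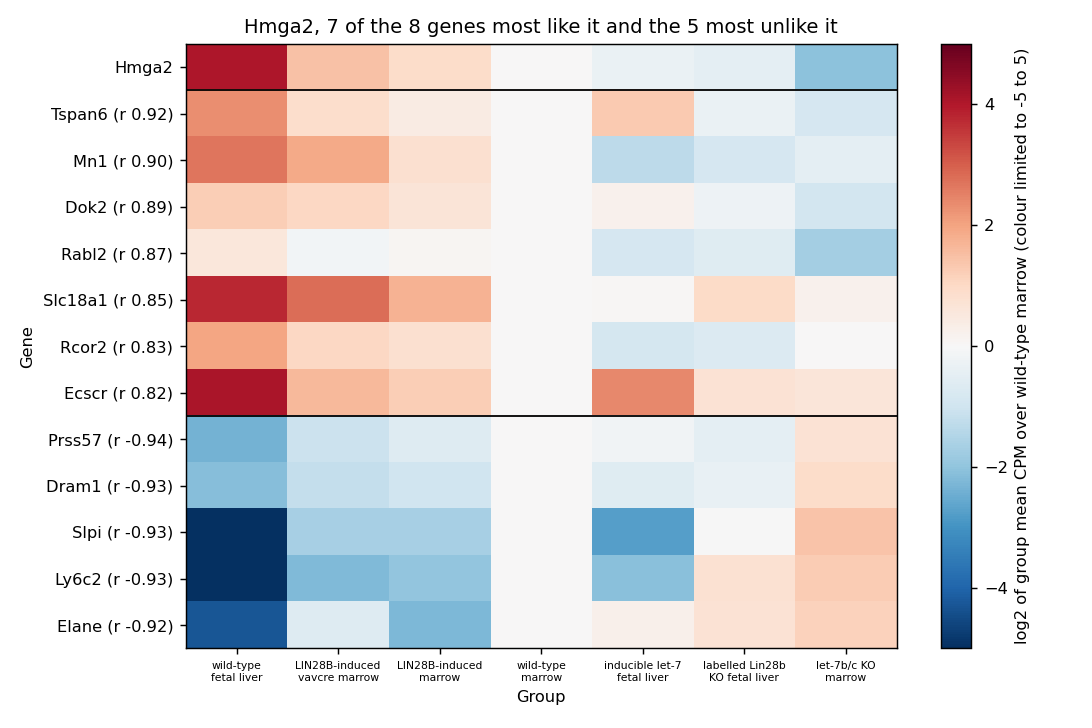
Log2 ratio of each group's mean CPM to that of wild-type marrow (colour, limited to -5 to 5) for Hmga2, 7 of the 8 genes with the highest r and the 5 with the lowest r to it over 17 libraries, with r beside each name. Tspan6 (0.92) and Mn1 (0.90) are red where Hmga2 is red in the marrow groups, and the 5 genes at the bottom have the opposite colour in wild-type fetal liver and the let-7b/c knockout.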

How the data were processed

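RNA was sequenced from total RNA after SMARTer ultra-low-input cDNA synthesis and low-input library preparation, per the labels' protocols. The deposited values are whole-number counts per RefSeq transcript made by the authors, and the summary lines in the files are those of HTSeq. Cutadapt, TopHat2, HTSeq and the build mm10 are listed in the submitters' processing notes. For their versions, order and strand setting, nothing was given in the sources used here. Reads fitting more than 1 transcript (23.8% to 29.8%) or none (8.87% to 19.3%) are absent from counts and library sizes. RefSeq now lists 2 Hmga2 transcripts, of which 1 was counted.

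Accessions were named from RefSeq for GRCm38.p6 (33431 of 33818) or GENCODE vM21 (195), and 192 stayed unnamed. Counts were summed per gene, since the files hold counts per transcript where counts per gene had been assumed. All 17 libraries entered 1 edgeR 4.0.16 quasi-likelihood fit with 7 group means (filterByExpr, TMM, 13558 genes, 10 residual degrees of freedom), with Benjamini-Hochberg adjustment over all genes. The fit was tested on simulated data. DESeq2 1.42.0 was an alternative. Replicate pairs differed by more than sampling noise (chi-square per degree of freedom 12.2 to 70.3).

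The text names Hmga2, the axis list, the let-7 targets higher in both rises of Hmga2 and 3 neighbours on each side. It also names the 8 genes most and 5 least correlated with Hmga2 (log2 CPM, prior count 2). Xist, Y-linked genes, small RNAs, pseudogenes and predicted genes were left out of that ranking. Of the high mobility group list, the tested genes and Hmga1 are named. Of the HMGA2-linked list, only genes called in the comparisons given are named, so these were picked by result. Other let-7 targets, match-rich genes, marker genes and genes in the Hmga2 and let-7b/c loci were named after their values were seen. Of the 8 most correlated genes, 1 is not reported here. The gene, lists and tests were chosen with earlier results of these data known. Tables were made with R 4.3.3 and Python 3.11.15 (pandas 2.3.3, numpy 2.4.6, scipy 1.17.1, matplotlib 3.10.9).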

Additional observations from a re-analysis of the deposited data

How the results depend on the processing

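Each Hmga2 comparison was repeated under 24 alternatives: other scalings, no filter on low counts, DESeq2, genes with 1 counted transcript, the compared groups alone, the replicate block and each of the 16 replicated libraries left out. In 7 of 10 comparisons the direction and the call held under all 24. The exceptions were the labelled Lin28b knockout against wild-type marrow, LIN28B without vavcre against wild-type marrow, and vavcre against no vavcre. In the first the log2 change was -0.54 with the replicate block (edgeR adjusted p = 0.0963), ran from -0.56 to -0.34 with a library left out, and was -0.80 on library totals alone. In the second it was 0.77 with the block (edgeR adjusted p = 0.417) and ran from 0.84 to 1.01. In the third it ran from 0.51 to 0.62 with a library left out, and it passed the threshold without a filter (0.56, edgeR adjusted p = 0.0293), with DESeq2 (0.56, adjusted p = 0.0189) and over genes with 1 counted transcript (0.57, edgeR adjusted p = 0.0419). The cause was not tested. On library totals alone, Hmga2 was at 95.9 CPM in LIN28B marrow under vavcre, 64.9 CPM without vavcre, 23.1 CPM in the inducible let-7 library and 19.4 CPM in the labelled Lin28b knockout. Counts per kilobase rescale all groups alike.

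Same-numbered libraries did not vary together (12 pairs, r from -0.083 to 0.030), so the replicate block, which leaves 4 residual degrees of freedom, only shares a number. With it Igf2bp1 turned from a log2 change of -1.37 to 0.092 between the labelled Lin28b knockout and wild-type fetal liver (edgeR adjusted p = 0.975). It gave 2185 genes called instead of 3677 for development, 3073 instead of 5941 and 4279 instead of 6476 for the labelled Lin28b knockout against wild-type liver and marrow, 274 instead of 1958 for LIN28B induction, 16 instead of 109 without vavcre, 1539 instead of 3634 with it, 435 instead of 2799 between them, and for the let-7b/c knockout 35 instead of 305 against wild-type marrow and 541 instead of 2505 against LIN28B marrow. DESeq2 called 390 genes without vavcre and 782 in the let-7b/c knockout. Fits of the compared groups alone called 1132 for induction, 268 without vavcre, 2007 with it, 422 between them and 1000 for the knockout against LIN28B marrow. No filter gave 191 without vavcre. With a library left out, the counts ran down to 1095 for induction (without wild-type marrow replicate 2), from 26 (no-vavcre replicate 5) to 242 (vavcre replicate 6) without vavcre, down to 1376 between the LIN28B groups (no-vavcre replicate 5), from 96 (wild-type marrow replicate 2) to 600 (vavcre replicate 4) in the let-7b/c knockout, and down to 1591 against LIN28B marrow (no-vavcre replicate 1). For the let-7 targets the block called 6 higher instead of 14 with LIN28B induction, 3 higher instead of 7 and 11 lower instead of 20 in the labelled Lin28b knockout, 2 lower instead of 5 in development, and 1 lower instead of 3 in the let-7b/c knockout, where leaving out either vavcre library gave 5. Depth limits Lin28b in wild-type marrow, which rests on 21 counts, more than Hmga2, whose lowest count was 100.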

Other observations

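Not every let-7 target was low in both sets of fetal liver libraries where Hmga2 was low. Cdc34, an enzyme that tags proteins for degradation, was at 328 ± 6.52 CPM (SD, n = 3) in the libraries labelled Lin28b knockout and 152 CPM in the inducible let-7 library, beside 326 ± 26.9 CPM (n = 3) in wild-type fetal liver. Mycn was under its wild-type fetal range of 198.8 to 228 CPM in both, at 17.8 ± 2.18 CPM in the labelled knockout and 106.0 CPM in the inducible let-7 library. With 1 inducible let-7 library, its differences got no test. Between the labelled knockout and wild-type fetal liver, Mycn was called (log2 change -3.59, edgeR adjusted p = 8.01e-07). Cdc34 was not (0.0071, edgeR adjusted p = 0.973).

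Within the let-7b/c knockout, replicate 1 had the highest level of Hmga2 (11.1 CPM) and of Mycn (50.1 CPM), and replicate 2 the lowest of both (5.66 and 10.8 CPM). Replicate 2 also had the highest summed erythroid level, 2680 CPM beside 1015 and 1426 CPM. Of 8 tested megakaryocyte markers, 2 were lower in this knockout than in wild-type marrow, 5 were lower in wild-type fetal liver than in wild-type marrow, and 8 were higher in the labelled Lin28b knockout than in wild-type fetal liver (edgeR, adjusted over all genes). All genes were called at shares of 2.25%, 27.1% and 43.8% in these comparisons. Of 8 tested lymphoid markers, 3 were higher in wild-type fetal liver than in wild-type marrow and 4 were lower in the labelled Lin28b knockout than in wild-type fetal liver, beside the same 27.1% and 43.8%.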
